A study of Mus musculus with 18 samples.

Results

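Liver expression of 10 genes of fatty acid uptake and binding was followed across 18 mice: Cd36, Slc27a1, Slc27a2, Slc27a4, Mfsd2a, Fabp1, Fabp2, Fabp4, Fabp5 and Lpl. The genes were picked by symbol for their known roles, with earlier results of these data known, and all 10 were found among the 19057 symbols of the table and were measured well enough to be tested. Messenger RNA of whole liver was sequenced in male ICR mice of 10 weeks, 3 in each of 6 groups. Con mice had regular diet and saline. STZ mice had received 1 injection of streptozotocin, a toxin of the insulin-producing beta cells that is used to make mice diabetic. A10-FMT and Con-FMT mice had the same injection and then oral microbiota taken from the small intestine of donor mice, which had been given alginate oligosaccharide (AOS) at 10 mg/kg or, for Con-FMT, no AOS. The donor material of each kind was pooled, so the 3 mice of an FMT group shared one inoculum. The AOS (10 mg/kg) and STZ+AOS groups are described only by their sample labels. STZ acted through the whole animal in 12 of the 18 mice, and its direct effect on liver and the effect of the diabetes cannot be told apart. No label says which mice shared a cage or litter, so p-values measure the spread between these mice.

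Long-chain fatty acids reach the liver bound to albumin or inside lipoproteins. Lipoprotein lipase (Lpl) frees them from circulating triglyceride, membrane proteins such as CD36 and the SLC27A fatty acid transport proteins help them into the cell, and MFSD2A carries lysophosphatidylcholine with its attached fatty acid, the form in which docosahexaenoic acid enters the brain. Inside the cell the small fatty acid binding proteins (FABPs) hold them in solution. FABP1 is the form of hepatocytes, FABP2 that of enterocytes, FABP4 that of adipocytes, macrophages and capillary endothelium, and FABP5 that of epidermis and many other cells. Many of these genes are targets of the peroxisome proliferator-activated receptors (PPARs), which bind DNA with RXR.

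The upstream sequences of 3 members are shown: Fabp1, the most abundant member and one that was lower with STZ, and Mfsd2a and Cd36, the members with the highest log2 changes. They are RefSeq sequences of GRCm38.p6, written 5′ to 3′ on the gene's own strand. Each ends at the base before the RefSeq start, except that of Fabp1, which ends before the first annotated GENCODE exon. Capitals mark the match to a direct repeat with one base between its parts, AGGNCANAGGNCA or, on the other strand, TGNCCTNTGNCCT, a form to which PPAR and RXR pairs and HNF4A are known to bind.
Fabp1, chr6:71199629-71199826, plus strand: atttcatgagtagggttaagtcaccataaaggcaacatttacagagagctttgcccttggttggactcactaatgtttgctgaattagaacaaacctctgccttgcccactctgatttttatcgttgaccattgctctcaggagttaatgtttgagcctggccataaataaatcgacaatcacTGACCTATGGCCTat
Mfsd2a, chr4:122961189-122961438, minus strand: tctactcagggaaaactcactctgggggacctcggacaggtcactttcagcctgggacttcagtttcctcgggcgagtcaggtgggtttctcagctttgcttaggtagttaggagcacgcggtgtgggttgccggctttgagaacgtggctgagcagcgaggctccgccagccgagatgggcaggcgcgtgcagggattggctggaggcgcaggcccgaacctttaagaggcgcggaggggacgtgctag
Cd36, chr5:17835897-17836146, minus strand: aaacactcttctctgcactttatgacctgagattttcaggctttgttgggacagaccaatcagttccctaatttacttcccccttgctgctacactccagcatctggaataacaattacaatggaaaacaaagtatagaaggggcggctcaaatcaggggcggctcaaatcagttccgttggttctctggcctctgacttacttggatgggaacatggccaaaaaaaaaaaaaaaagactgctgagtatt

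The search covered the 250 bases upstream of 9 RefSeq starts of 7 members (Fabp4, Fabp5 and Lpl were not searched). It found 1 match, in Fabp1, on the minus strand with its first base at -67 from the RefSeq start. The window searched for Fabp1 ran on to chr6:71199878, past the end of the printed stretch. Over all 32851 windows of the same length, 111 (0.338%) held a match on either strand. The match describes the letters and is not evidence of binding, and a window without one says nothing of PPAR or HNF4A acting elsewhere on the gene.

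Values are RPKM (reads scaled by transcript length and by the mapped reads of the library), so levels can be compared between genes per length. Changes are differences of log2(RPKM + 1), which understates the change of genes near 1 RPKM, and calls were made in limma where p, adjusted over all tested genes, was under 0.05. STZ against Con compares untreated diabetic with healthy mice, and 38.5% of the 10602 tested genes were called in it (3502 higher, 585 lower). The count was 2562 genes without Con mouse 1 and 2630 without STZ mouse 2. The values of the Con and STZ mice did not overlap in 47.7% of all tested genes. Of the 10 members, 5 were higher (Cd36, Slc27a1, Slc27a2, Mfsd2a and Fabp4) and 2 were lower (Fabp1 and Fabp5), while Slc27a4, Fabp2 and Lpl did not pass. The members' median log2 change was 0.72, against 0.21 over all tested genes, and 6 of the 10 changed at least 2-fold, against 6.54% of all. The median of 0.21 depended on the scaling, as dividing each library by its median ratio to the others brought it to -0.007 and the calls to 1488 higher and 1405 lower (51.4% higher, against 85.7% before). With that scaling 4 members were higher and 3 lower. Within STZ, mouse 3 was the one nearest to Con in Cd36, Slc27a1, Fabp1, Fabp2, Fabp4, Fabp5 and Lpl, and results that rest on it are given with and without it.

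**Figure D1:**
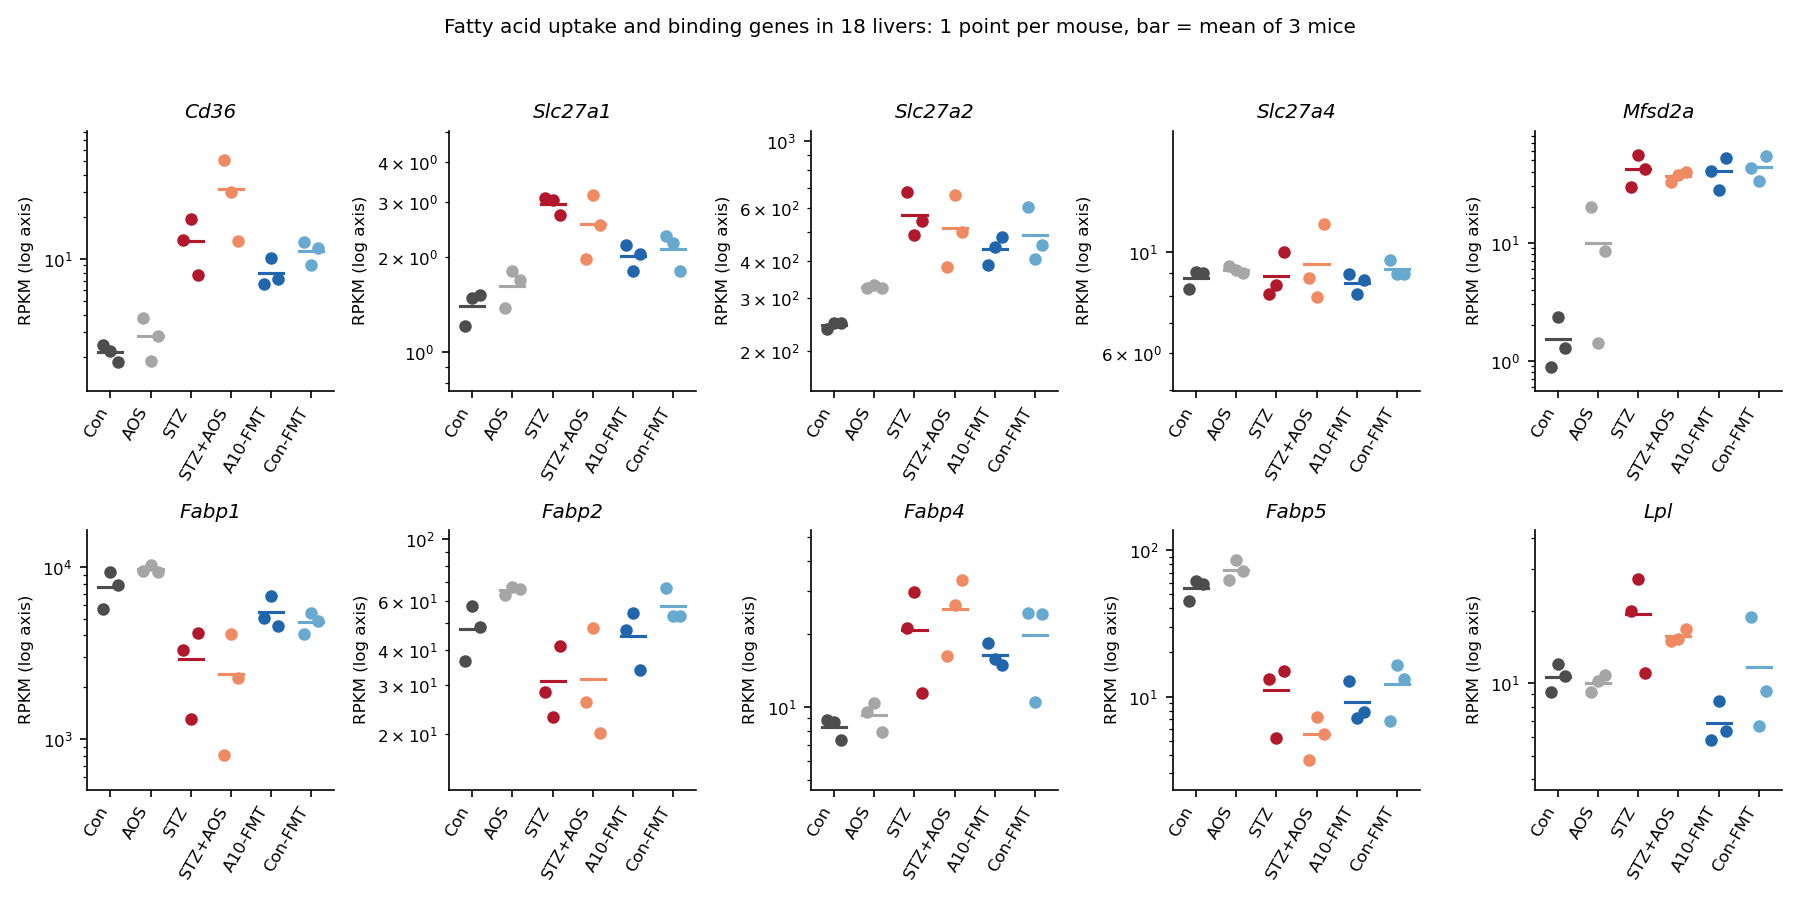
RPKM of the 10 genes in each of the 18 livers on log axes, 1 panel per gene and 1 point per mouse, with a bar at the mean of the 3 mice of a group. Mfsd2a lay at 27.8 RPKM or more in all 12 STZ-injected mice and at 20.0 or less in the other 6, and Fabp5 lay at 16.4 or less in the injected mice and at 44.7 or more in the others.

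Mfsd2a (chr4:122946850-122961188), the lysophosphatidylcholine transporter, had the largest change of the members in STZ against Con. It read 0.89, 2.36 and 1.28 RPKM in the 3 Con mice and 29.6, 55.2 and 42.2 RPKM in the 3 STZ mice. Every STZ mouse was far above every Con mouse. Its log2 change was 4.11 (SE 0.29, limma adjusted p 2.92e-05).

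Cd36 (chr5:17781690-17888801), the scavenger receptor that takes up long-chain fatty acids and oxidized lipoprotein, read 2.45, 2.22 and 1.85 RPKM in Con and 13.6, 19.3 and 7.68 RPKM in STZ. The groups were apart, with mouse 3 the lowest of the STZ mice. The log2 change was 2.11 (SE 0.26, limma adjusted p 0.000477) and lay between 1.83 and 2.44 when any 1 mouse was left out.

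Slc27a2 (chr2:126552407-126588243) encodes a very long-chain acyl-CoA synthetase that is also a fatty acid transport protein of liver and kidney. It read 237, 248 and 248 RPKM in Con and 676, 488 and 542 RPKM in STZ, so that log2 rose by 1.20 (SE 0.17, limma adjusted p 0.000751). The 3 Con mice were close together and the STZ mice lay well above them. This gene made up 96.0% ± 0.12 (SD, n = 3) of the summed RPKM of the 3 SLC27A members in Con and 97.9% ± 0.39 in STZ. Slc27a1 (chr8:71568882-71587302), the insulin-responsive transporter of muscle and fat, was expressed at a low level. It read 1.21, 1.49 and 1.52 RPKM in Con and 3.09, 3.03 and 2.72 RPKM in STZ (log2 change 0.71, SE 0.10, limma adjusted p 0.000722), again without overlap. Slc27a4 (chr2:29802634-29817522), the main transporter of the intestine, stayed within 7.96 and 11.5 RPKM in all 18 mice. Its log2 change with STZ was 0.01, with a 95% interval from -0.19 to 0.20 (limma adjusted p 0.957). Relative to the median change of all tested genes, which depended on the scaling, it was -0.21.

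Fabp1 (chr6:71199827-71205023) read 5688, 9398 and 7885 RPKM in Con and 3283, 1311 and 4139 RPKM in STZ. All STZ mice were below all Con mice, and mouse 2 was the lowest. The log2 change was -1.52 (SE 0.38, limma adjusted p 0.0103). The call was lost with quantile normalization (log2 change -0.85, limma adjusted p 0.166), which replaces the highest values of each library by their average over the libraries, and with only Con and STZ in the fit (-1.52, limma adjusted p 0.0516). Fabp1 was the bulk of the FABP messages per length in every mouse, from 94.6% to 98.9% of the summed RPKM of the 4 FABP members.

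Fabp5 (chr3:10012548-10016607) fell further, from 44.7, 61.9 and 58.2 RPKM in Con to 13.2, 5.22 and 14.9 RPKM in STZ. The highest STZ mouse was below the lowest Con mouse. The log2 change was -2.31 (SE 0.37, limma adjusted p 0.00129). Fabp5 has processed pseudogenes, and although the methods give an aligner setting for repeat hits, how such reads were counted is not given in the sources used here. Fabp2 (chr3:122895072-122899506) read 36.6, 57.4 and 48.4 RPKM in Con and 28.4, 23.1 and 41.4 RPKM in STZ. Its groups overlapped and the change did not pass (log2 change -0.62, limma adjusted p 0.0562), but it passed without STZ mouse 3 (-0.84, limma adjusted p 0.0103), without Con mouse 1 (-0.79, limma adjusted p 0.0426) and after median-ratio scaling (-0.88, limma adjusted p 0.0197). Without STZ mouse 2 the change was -0.43.

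Fabp4 (chr3:10204088-10208576) read 8.84, 8.64 and 7.31 RPKM in Con and 21.2, 29.7 and 11.5 RPKM in STZ. The groups did not overlap, although STZ mouse 3 was only a little above the Con mice. The log2 change was 1.14 (SE 0.33, limma adjusted p 0.0203), and the call was lost without Con mouse 3 (limma adjusted p 0.0645), STZ mouse 1 (0.057) or STZ mouse 2 (0.085), and after median-ratio scaling (0.0515). Lpl (chr8:68880491-68907448), which is low in adult hepatocytes and high in fat and muscle, read 9.22, 12.1 and 10.7 RPKM in Con and 20.0, 27.1 and 11.1 RPKM in STZ. Its groups overlapped through STZ mouse 3. The log2 change was 0.73 (SE 0.34, limma adjusted p 0.112), with 1.06 without that mouse (limma adjusted p 0.0198) and 0.46 without STZ mouse 2.

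The effect of STZ was also read in mice that the first comparison did not use, as STZ+AOS against AOS, in which both groups had AOS at 10 mg/kg. Of the 10822 genes tested with all 6 groups, 37.9% were called (3441 higher, 661 lower). After median-ratio scaling 1325 were higher and 1329 lower (49.9% higher, against 83.9%). Among the members 5 were higher and 3 lower. The 7 members called in STZ against Con were called here too and in the same direction, which is 100% of the first list and 87.5% of the second. The fit of 6 groups took its spread from the Con and STZ mice as well, so the calls are not independent. With only the groups compared in each fit, Fabp1 did not pass in STZ against Con. Mfsd2a, Slc27a1 and Slc27a2 then did not pass in STZ+AOS against AOS. Over all genes, 2784 were called in the same direction in both comparisons (68.1% of 4087 and 67.9% of 4102), and 2 in opposite directions. The values of the AOS and STZ+AOS mice did not overlap in 49.1% of the 10822 genes.

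Cd36 read 3.79, 1.87 and 2.82 RPKM in AOS and 51.0, 29.9 and 13.4 RPKM in STZ+AOS. The groups were apart, and STZ+AOS mouse 1 had the highest value of the 18 mice (log2 change 2.93, SE 0.37, limma adjusted p 0.000135). Fabp5 went from 62.7, 85.6 and 72.3 RPKM in AOS to 3.71, 7.29 and 5.58 RPKM in STZ+AOS, the lowest group of the 6 by its mean (log2 change -3.54, SE 0.34, limma adjusted p 1.46e-05). Fabp1 read 9499, 10277 and 9385 RPKM in AOS and 811, 4064 and 2259 RPKM in STZ+AOS. STZ+AOS mouse 1 had the lowest Fabp1 of all mice together with the highest Cd36 (Fabp1 log2 change -2.31, SE 0.48, limma adjusted p 0.00218).

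Mfsd2a differed between the AOS mice. It read 20.0, 1.41 and 8.44 RPKM in AOS and 32.4, 37.2 and 39.9 RPKM in STZ+AOS. One AOS mouse was at the level of Con and the others were between Con and the injected groups (log2 change 2.26, SE 0.53, limma adjusted p 0.0047). The change was 1.41 without AOS mouse 2 and 2.97 without AOS mouse 1. Fabp2 passed here (log2 change -1.13, limma adjusted p 0.00562), as did Fabp4 (1.30, limma adjusted p 0.00693), Slc27a1 (0.43, limma adjusted p 0.0117) and Slc27a2 (0.61, limma adjusted p 0.0187). After median-ratio scaling Slc27a1 (limma adjusted p 0.104) and Slc27a2 (0.14) no longer passed, and 3 members were higher and 3 lower. Lpl read 9.17, 10.2 and 10.8 RPKM in AOS and 15.0, 15.3 and 16.8 RPKM in STZ+AOS, without overlap, and did not pass (log2 change 0.59, limma adjusted p 0.128), though it passed in a fit of only these 2 groups (limma adjusted p 0.0125). In that fit Mfsd2a (limma adjusted p 0.052), Slc27a1 (0.0724) and Slc27a2 (0.0665) did not pass. The call of Slc27a1 was also lost without AOS mouse 1 (limma adjusted p 0.0513) or STZ+AOS mouse 2 (0.0508), and that of Slc27a2 without AOS mouse 3 (0.0517) or STZ+AOS mouse 2 (0.0828). The log2 change of Slc27a4 was 0.02 (limma adjusted p 0.895), and -0.19 relative to the median of all tested genes.

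**Figure D2:**
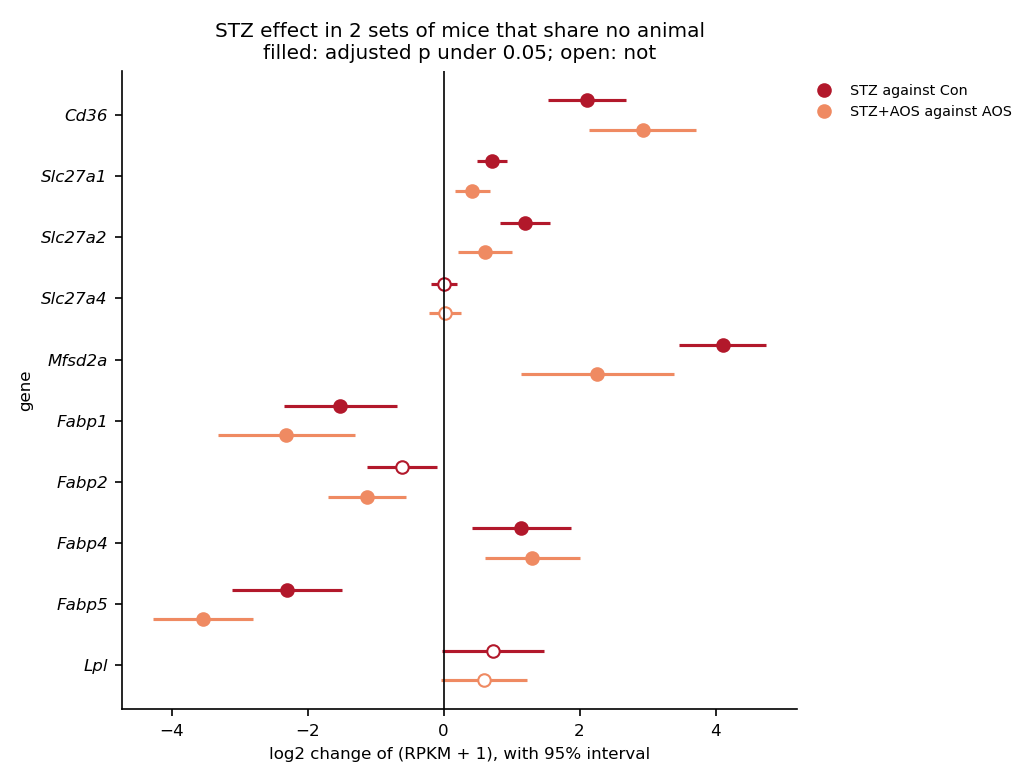
Log2 change of (RPKM + 1) for each gene in STZ against Con and in STZ+AOS against AOS, with 95% intervals from limma, filled where the adjusted p was under 0.05. The 7 genes filled in the first set were filled in the second in the same direction, Fabp2 was filled only in the second, and the intervals of Slc27a4 and Lpl included 0 in both.

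Whether the STZ effect differed with AOS was tested as an interaction. It called 0% of the 10822 genes (0 genes, with 584 at an unadjusted p under 0.05) and none of the members in limma. Of the members 3 had an unadjusted p under 0.05, Slc27a2 (difference of log2 changes -0.59), Mfsd2a (-1.85) and Fabp5 (-1.23), each with a limma adjusted p of 0.856. Leaving out 1 mouse moved the difference for Mfsd2a between -2.70 (without AOS mouse 2) and -1.14 (without AOS mouse 1), and took that for Slc27a2 to -0.39 without STZ+AOS mouse 1. AOS against Con called 0.00924% of genes (1 lower) and no member in limma, with 2 members at an unadjusted p under 0.05. These were Slc27a2, whose AOS mice read 325, 333 and 325 RPKM, above the Con mice (log2 change 0.42), and Mfsd2a (1.68, limma adjusted p 0.542). The values of the AOS and Con mice did not overlap in 24.4% of genes. Mfsd2a passed when AOS mouse 2, the mouse at the Con level, was left out (2.53, limma adjusted p 0.0227), and its change was 0.97 without AOS mouse 1. STZ+AOS against STZ called 0% of genes in limma (0 genes, 657 at an unadjusted p under 0.05). Among the members Cd36 (log2 change 1.06) and Fabp5 (-0.82) had an unadjusted p under 0.05, each with a limma adjusted p of 0.806. The change of Cd36 was 0.62 without STZ+AOS mouse 1, and that of Fabp5 was -1.24 without STZ mouse 2.

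Set side by side, the 12 STZ-injected mice lay above all 6 other mice in Cd36, Slc27a2, Mfsd2a and Fabp4 and below them in Fabp5. The ranges were 6.65 to 51.0 RPKM (median 12.6) against 1.85 to 3.79 (2.34) for Cd36, and 382 to 676 RPKM (median 485) against 237 to 333 (286) for Slc27a2. They were 27.8 to 55.2 RPKM (median 40.3) against 0.89 to 20.0 (1.89) for Mfsd2a. For Fabp4 they were 10.5 to 33.5 RPKM (median 19.8) against 7.31 to 10.4 (8.74), with the 2 sets almost touching. For Fabp5 they were 3.71 to 16.4 RPKM (median 7.60) against 44.7 to 85.6 (62.3). Such a lack of overlap was found in 12.2% of the 10822 genes, 1163 above and 155 below.

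Because FABP4 and LPL are proteins of fat cells, macrophages and vessels, markers of other cells were read beside them. Hepatocyte markers were abundant in all mice, with albumin (Alb), named for its level after the values were seen, at 24367 to 37719 RPKM. Of the 7 that were tested, 1 was higher in STZ against Con, Cps1 (log2 change 1.37, limma adjusted p 0.000512). Ttr (-0.92, limma adjusted p 0.0056) and Apoa1 (-0.70, 0.0317) were lower, and 4 did not pass, where 38.5% of all genes were called. Of 6 adipocyte markers Lep was at 0 in every mouse and Adipoq, Plin1, Retn and Cfd were under 1 RPKM in every mouse. The sixth, Car3, which hepatocytes also express, was between 4.14 and 4071 RPKM and made up nearly all of the list's sum, so the sum fell with Car3 from 2921 ± 928 RPKM (SD, n = 3) in Con to 312 ± 515 RPKM in STZ. All 6 enterocyte markers, and 5 of 6 muscle markers, were under 1 RPKM in every mouse, with the most abundant muscle marker Mylpf at 0.46 to 2.16 RPKM. Mylpf was called higher in STZ (1.22, 1.54 and 2.04 RPKM) than in Con (0.63, 0.87 and 0.46 RPKM), with a log2 change of 0.65 (limma adjusted p 0.0163), and its part in the values of Lpl was not tested. Gut markers, muscle markers apart from Mylpf and fat markers apart from Car3 were thus at or near 0 in all mice.

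Markers of liver macrophages were read beside Fabp4. Their summed level over 9 genes was 118, 79.8 and 105 RPKM in Con and 220, 278 and 118 RPKM in STZ. The order of the 3 STZ mice was the same as for Fabp4, Cd36 and Lpl, with mouse 2 highest and mouse 3 lowest. Of the 9 markers 3 were higher in STZ against Con, Marco, Timd4 and Lyz2, with none lower, a share near the 38.5% of all genes called, and the most abundant one, Cd5l, did not pass (log2 change 0.88, limma adjusted p 0.103). In STZ+AOS the macrophage sum was 176, 135 and 138 RPKM, whereas Fabp4 was 16.2, 26.4 and 33.5 RPKM so that mouse 1 had the highest sum and the lowest Fabp4. In A10-FMT the sum was 143, 62.7 and 164 RPKM and Fabp4 18.4, 15.7 and 14.9 RPKM, again in different orders. In Con-FMT the sum was 144, 95.03 and 137 RPKM and Fabp4 24.5, 10.5 and 24.3 RPKM, in the same order. Cd36 and Lpl also had the order of the macrophage sum in Con-FMT, and neither had it in STZ+AOS or A10-FMT. The sum of 8 endothelial markers was 40.4, 47.3 and 42.5 RPKM in Con and 57.4, 60.9 and 45.5 RPKM in STZ, and it was 61.6, 45.5 and 56.9 RPKM in Con-FMT. In both STZ and Con-FMT it had the order of Fabp4, while in STZ+AOS (57.8, 51.6 and 72.5 RPKM) and A10-FMT (49.4, 34.9 and 59.6 RPKM) it did not. Of the 8 genes 3 were higher, Pecam1, Kdr and Vwf, again near the share of all genes, none was lower, and the most abundant, Clec4g, was not among them (log2 change 0.11, limma adjusted p 0.683), a gene picked for its level after the values were seen. The sum of 6 stellate cell markers was 69.1, 80.1 and 69.6 RPKM in Con and 128, 107 and 115 RPKM in STZ, with 1 of the 6 genes higher, below the share of all genes, namely Dcn, the most abundant of the list. The part of these cells in the values of Fabp4, Cd36 and Lpl was not tested. In bulk tissue, fewer cells of a type and less RNA per cell cannot be told apart.

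**Figure D3:**
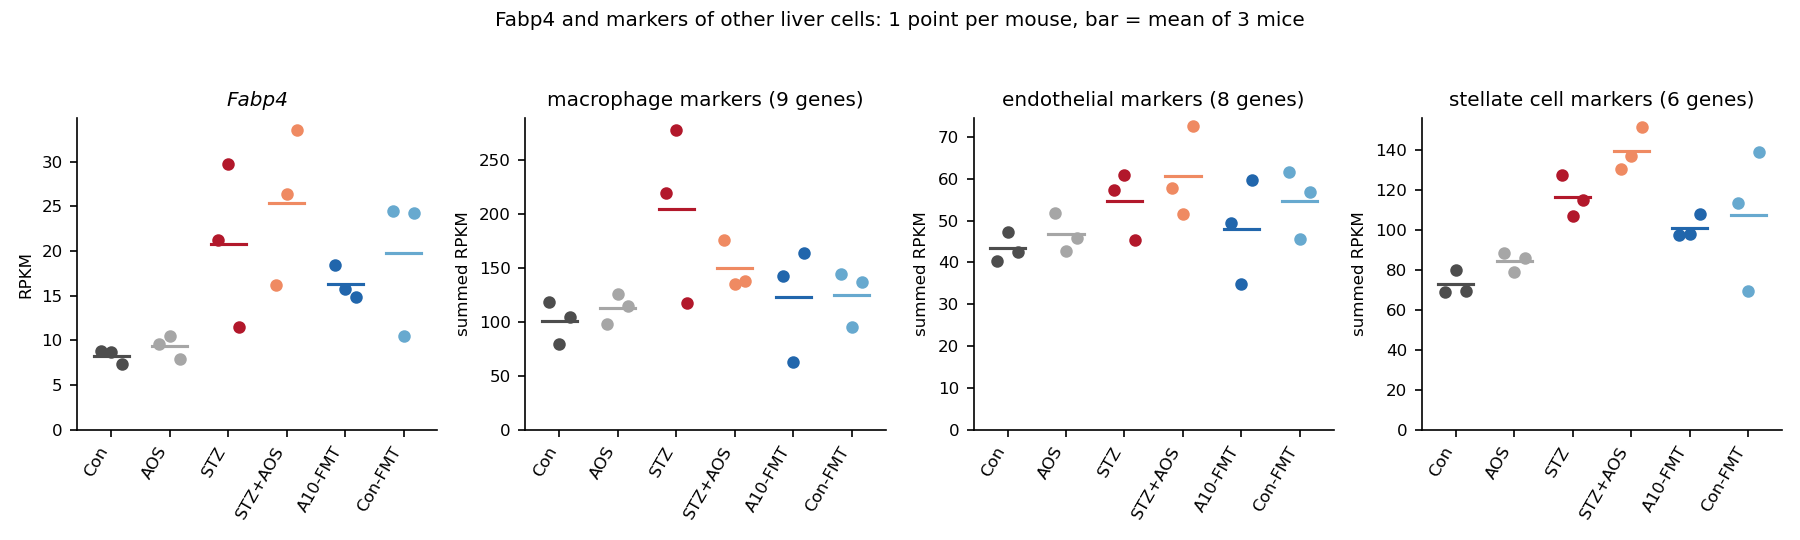
RPKM of Fabp4 and summed RPKM of macrophage (9 genes), endothelial (8) and stellate cell markers (6) on linear axes from 0, 1 point per mouse and a bar at the mean of 3 mice. In STZ the mouse with the highest Fabp4 (29.7 RPKM) also had the highest macrophage sum (278 RPKM), and the mouse with the lowest (11.5 RPKM) had the lowest (118 RPKM).

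Whether transplanted microbiota moved these genes in diabetic mice was read as A10-FMT against STZ and Con-FMT against STZ, which share the 3 STZ mice. No member was called in limma in either. Over all genes 0.226% were called in A10-FMT against STZ (7 higher, 17 lower, with 2212 at an unadjusted p under 0.05) and 0.00943% in Con-FMT against STZ (1 lower, with 2131). After median-ratio scaling the calls were 38 higher and 57 lower in the first and 19 higher and 54 lower in the second. In A10-FMT against STZ 5 members had an unadjusted p under 0.05, and in Con-FMT against STZ 3 members. The values of the groups did not overlap in 21.5% of all tested genes in the first comparison and 17.7% in the second. For A10-FMT against Con this share was 48.9%.

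Fabp1 read 5052, 6768 and 4566 RPKM in A10-FMT and 4082, 5409 and 4871 RPKM in Con-FMT. All A10-FMT mice were above all STZ mice, and in Con-FMT 1 mouse fell just under the highest STZ mouse. The log2 change against STZ was 1.04 in A10-FMT (95% interval 0.21 to 1.88, limma adjusted p 0.165) and 0.86 in Con-FMT (0.03 to 1.70, limma adjusted p 0.235). Fabp2 read 47.3, 54.3 and 33.9 RPKM in A10-FMT and 66.6, 53.0 and 53.0 RPKM in Con-FMT. Con-FMT was above STZ in every mouse (log2 change 0.90, limma adjusted p 0.0929), and A10-FMT overlapped it (0.54, limma adjusted p 0.22).

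Lpl read 5.79, 8.45 and 6.36 RPKM in A10-FMT, below all Con and all STZ mice, and 18.9, 6.68 and 9.33 RPKM in Con-FMT. Con-FMT was spread across the range of the other groups, with mouse 1 high. The log2 change against STZ was -1.30 in A10-FMT (95% interval -2.06 to -0.55, limma adjusted p 0.0878) and -0.72 in Con-FMT (-1.48 to 0.03), the latter -1.11 without Con-FMT mouse 1 and -0.42 without Con-FMT mouse 2. Cd36 read 6.65, 10.2 and 7.21 RPKM in A10-FMT and 13.3, 9.10 and 11.9 RPKM in Con-FMT. Both overlapped STZ, with log2 changes of -0.62 (limma adjusted p 0.211) and -0.15. Slc27a1 was under STZ in every mouse of both groups (log2 changes -0.39 and -0.34, limma adjusted p 0.0829 and 0.113). Against STZ the 9 macrophage markers had a median log2 change of -0.49 in A10-FMT and -0.39 in Con-FMT. Over all tested genes these medians were -0.05 and -0.03. None of the 9 was called in limma in either comparison, and their part in the values of Lpl and Cd36 was not tested.

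These comparisons depended on single STZ mice. Without mouse 2 the log2 change of Fabp1 was 0.55 in A10-FMT and 0.37 in Con-FMT, that of Cd36 in A10-FMT was -0.34 and that of Fabp2 in A10-FMT was 0.36, each nearer to 0 than with all mice, and no member passed. In A10-FMT against STZ 5 members passed without mouse 3, Fabp1 (log2 change 1.38, limma adjusted p 0.0319) and Fabp2 (0.77, 0.0459) higher and Cd36 (-0.95, 0.015), Slc27a1 (-0.43, 0.0304) and Lpl (-1.64, 0.0117) lower. In Con-FMT against STZ 4 passed, Fabp1 (1.20, limma adjusted p 0.0464) and Fabp2 (1.13, 0.00961) higher and Slc27a1 (-0.38, 0.0417) and Lpl (-1.06, 0.0491) lower. All genes called rose as well, to 1343 and 1636. STZ mouse 3 is 1 of 3 mice of its group and no label sets it apart.

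Mfsd2a and Fabp5 remained far from Con in both FMT groups. Mfsd2a read 40.6, 27.8 and 52.2 RPKM in A10-FMT and 43.0, 33.2 and 54.0 RPKM in Con-FMT, a log2 change against STZ of -0.07 (95% interval -0.71 to 0.57) and 0.05 (-0.59 to 0.69). Fabp5 read 12.7, 7.13 and 7.90 RPKM in A10-FMT and 6.86, 16.4 and 13.1 RPKM in Con-FMT. Against STZ the log2 changes were -0.17 (-0.97 to 0.64) and 0.15 (-0.65 to 0.96). None of these intervals reached a change as large as that of STZ against Con.

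A10-FMT and Con-FMT differ in the treatment of the donors, and no member was called between them in limma, nor was any other gene (0%, with 303 genes and no member at an unadjusted p under 0.05). The members' log2 differences ran from -0.58 for Lpl (95% interval -1.34 to 0.17) to 0.18 for Fabp1 (-0.65 to 1.01). Single mice moved both, that of Lpl to -0.19 without Con-FMT mouse 1 and -0.88 without Con-FMT mouse 2, and that of Fabp1 to 0.014 without A10-FMT mouse 2. For Cd36 the difference was -0.47 (-1.05 to 0.11), and for Mfsd2a it was -0.13 (-0.76 to 0.51). That of Mfsd2a was -0.33 without A10-FMT mouse 3 and 0.11 without A10-FMT mouse 2. A difference between A10-FMT and Con-FMT was not detectable on these genes with 3 mice a group. As each group had 1 pooled inoculum, an effect of the AOS given to the donors cannot be told apart from a difference between the pools.

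Against the same 3 Con mice, 18.4% of genes passed in A10-FMT, with 1691 higher and 262 lower, and 19.4% passed in Con-FMT, with 1859 higher and 200 lower. After median-ratio scaling these calls were 641 higher and 523 lower in A10-FMT and 488 higher and 386 lower in Con-FMT. Leaving out 1 mouse took the 1953 genes of A10-FMT to 547 without Con mouse 1, 687 without Con mouse 3, and 865, 1153 and 623 without A10-FMT mouse 1, 2 or 3. The 2059 genes of Con-FMT went to 615 without Con mouse 1, 705 without Con mouse 3, and 603 and 1001 without Con-FMT mouse 1 or 3. Members called in A10-FMT numbered 4 above and 1 below Con, and those in Con-FMT 5 above and 1 below. Cd36 had log2 changes of 2.11, 1.49 and 1.96 in STZ, A10-FMT and Con-FMT against Con (limma adjusted p 0.00559 in A10-FMT and 0.00189 in Con-FMT). Those of Mfsd2a were 4.11, 4.03 and 4.16 (6.6e-05 and 4.75e-05), those of Slc27a2 1.20, 0.83 and 0.97 (0.00997 and 0.00605), and those of Fabp5 -2.31, -2.47 and -2.16 (0.00265 and 0.00561). Slc27a1 passed narrowly in both FMT groups (log2 changes 0.33 and 0.37, limma adjusted p 0.0422 and 0.0264) and Fabp4 in Con-FMT (1.08, 0.0436). Median-ratio scaling ended the calls of Slc27a1 (limma adjusted p 0.157 and 0.117) and of Fabp4 (0.111), and left 3 members higher and 1 lower in each group. With the mouse numbers as a block, Slc27a1 in A10-FMT (limma adjusted p 0.0695) and Fabp4 in Con-FMT (0.0616) did not pass. The calls also depended on single mice. That of Slc27a1 in A10-FMT was lost without any 1 of the 6 mice compared (limma adjusted p 0.0548 to 0.156). In Con-FMT it was lost without Con mouse 1 or 3 or Con-FMT mouse 1 or 2 (0.0553 to 0.106), and that of Fabp4 without any Con mouse or Con-FMT mouse 1 or 3 (0.0792 to 0.163).

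**Figure D4:**
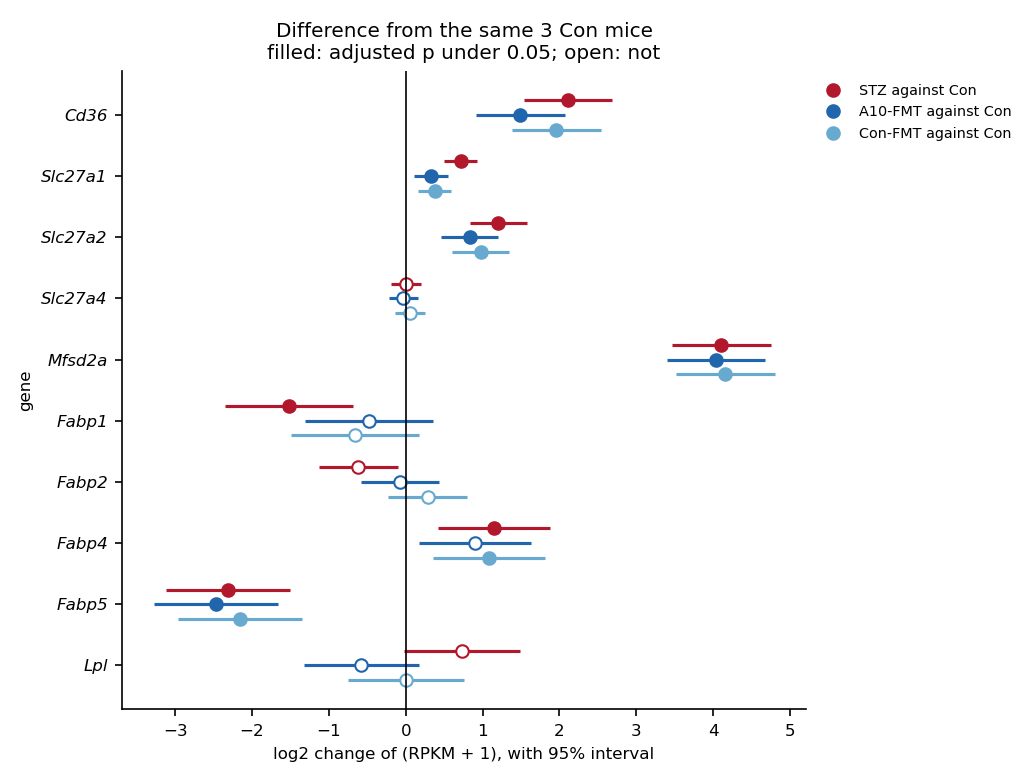
Log2 change of (RPKM + 1) against the same 3 Con mice for STZ, A10-FMT and Con-FMT, with 95% intervals from limma, filled where the adjusted p was under 0.05. Mfsd2a (4.03 to 4.16) and Fabp5 (-2.47 to -2.16) lay at like distances from Con in the 3 groups, while Fabp1 was filled only in STZ and Lpl lay on both sides of 0.

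Partner genes were read in lists for STZ against Con, with the same background of 38.5% called. Among 12 other genes of fatty acid transport and binding, 8 could be tested, and Slc27a3, Slc27a6, Fabp3 and Fabp6 were under the limit. Of the 8, 3 were higher, 2 lower and 3 did not pass, with a median log2 change of 0.18 against 0.21 over all genes. Slc27a5, the bile acid-CoA ligase of liver that also activates very long-chain fatty acids, went from 209, 235 and 238 RPKM in Con to 433, 412 and 314 RPKM in STZ (log2 change 0.75, SE 0.15, limma adjusted p 0.00361). Every STZ mouse was above every Con mouse. Acbd5, an acyl-CoA binding protein of peroxisomes, rose by a log2 change of 0.66 (limma adjusted p 0.00325). Got2, the mitochondrial aspartate aminotransferase also described as a plasma membrane fatty acid binding protein, rose by 0.50 (limma adjusted p 0.0189). Scp2, the sterol carrier protein and peroxisomal thiolase, read 1478, 1590 and 1535 RPKM in Con and 539, 633 and 1360 RPKM in STZ (log2 change -0.99, SE 0.28, limma adjusted p 0.019). Here too STZ mouse 3 was the nearest to Con. The other gene that was lower was Dbi, the acyl-CoA binding protein, named after its value was seen (log2 change -0.52, limma adjusted p 0.0234). In STZ+AOS against AOS 1 of these 8 genes was higher and 2 lower, near the 37.9% of all genes called. The median log2 change there was 0.07 against 0.21 over all genes.

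Of the 5 long-chain acyl-CoA synthetases, which trap fatty acids in the cell as CoA esters, 4 could be tested and none was called in STZ against Con. Their log2 changes in limma ran from -0.33 for Acsl5 (adjusted p 0.128) to 0.29 for Acsl4 (adjusted p 0.199). In STZ+AOS against AOS, where the background was 37.9%, Acsl5 (log2 change -1.04, limma adjusted p 0.00161) and Acsl1 (-0.88, 0.00934) were lower and Acsl4 was higher (0.63, 0.0454).

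Of the 11 partners of Lpl and related lipases 10 were in the table under these symbols and were tested, with 5 higher and 1 lower in STZ against Con and a median log2 change of 0.42. Angptl4, an inhibitor of Lpl that is induced by fasting and PPARs, read 17.3, 25.0 and 21.3 RPKM in Con and 67.4, 107 and 66.4 RPKM in STZ (log2 change 1.85, SE 0.28, limma adjusted p 0.00103). The groups were far apart. The activators of Lpl in lipoproteins rose too, Apoc2 by a log2 change of 0.91 (limma adjusted p 0.0032) and Apoa5 by 0.96 (limma adjusted p 0.0128). Lipg, the endothelial lipase, rose by 0.65 from a low level (1.43 ± 0.47 to 2.79 ± 0.44 RPKM, SD, n = 3, limma adjusted p 0.0151). The other gene that was higher was Gpihbp1, which holds Lpl on the capillary wall (0.68, limma adjusted p 0.0415), and the one that was lower was Lmf1, which folds the lipases (-0.33, 0.0268). Both were named after their values were seen. Both an inhibitor and activators of Lpl were thus among the genes that rose. In STZ+AOS against AOS 3 of the 10 were higher and 2 lower, near the 37.9% of all genes called, and the median log2 change was -0.12 against 0.21 over all genes.

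Of 8 nuclear receptors and cofactors that act on these genes, 5 were higher and 1 lower, with a median log2 change of 0.58. Ppard, the PPAR of most widespread expression, fell from 16.0, 18.1 and 18.7 RPKM in Con to 2.93, 2.31 and 5.36 RPKM in STZ (log2 change -2.09, SE 0.20, limma adjusted p 0.00019). It was at 7.00, 10.9 and 9.11 RPKM in AOS, and at 3.63 RPKM or less in all STZ+AOS, A10-FMT and Con-FMT mice. Ppargc1a, the coactivator of fasting, was under 1 RPKM in all Con mice and read 4.72, 8.84 and 2.98 RPKM in STZ (log2 change 1.86, SE 0.28, limma adjusted p 0.00105). Hnf4a, the hepatocyte receptor that binds the same direct repeat, went from 106 ± 3.68 to 179 ± 9.87 RPKM (SD, n = 3), a log2 change of 0.75 (limma adjusted p 0.00102). Nr1i2, the pregnane X receptor, of which Cd36 is a known target, rose by 0.92 (limma adjusted p 0.002). Rxra and Pparg were also higher (0.52 and 0.64, limma adjusted p 0.00414 and 0.0423), both named after their values were seen. The change of Ppara, the main PPAR of hepatocytes, did not pass, nor did that of Nr1h3, both also named after their values were seen. Against Con, 4 of the 8 were higher and 1, Ppard, was lower in each of A10-FMT and Con-FMT, where 18.4% and 19.4% of all genes were called.

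**Figure D5:**
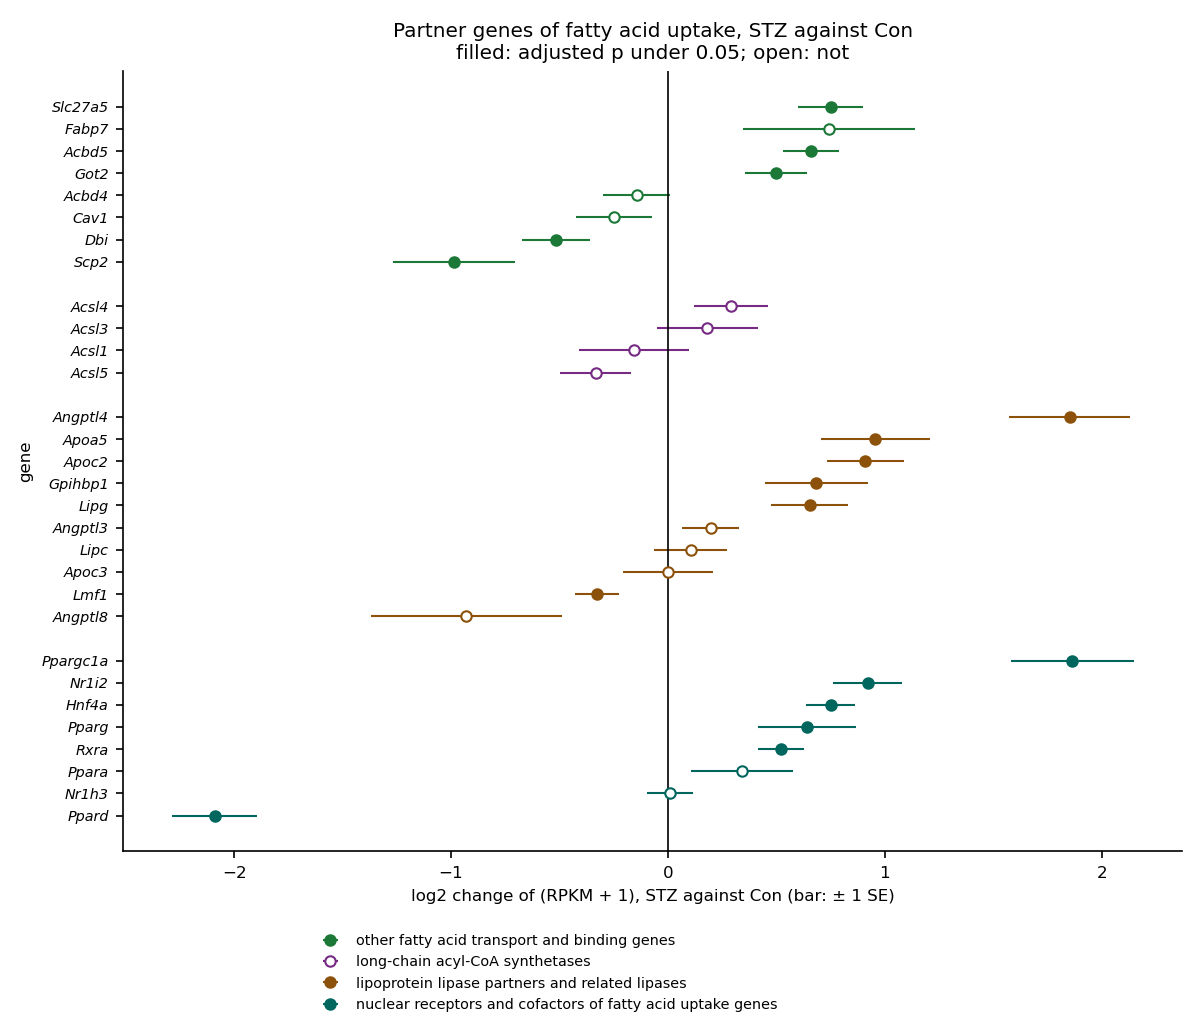
Log2 change of (RPKM + 1) in STZ against Con for the tested genes of 4 lists, grouped by list, with bars of 1 SE, filled where the limma adjusted p was under 0.05. Ppard (-2.09) stood lowest and Ppargc1a (1.86) and Angptl4 (1.85) highest, while no acyl-CoA synthetase was filled.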

How the data were processed

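The authors enriched mRNA from 18 mouse livers with oligo(dT) beads, sequenced it and deposited 1 value per gene symbol and library. Per the methods the values are RPKM, scaled by the authors to transcript length and mapped reads. The methods name SOAPaligner, the submitters' processing notes Bowtie 0.12.2 and mm10. The authors called genes with the MARS method of DEGseq, which needs read numbers and was not run here. Replicates were not pooled, and all columns were matched to samples by their titles.

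Genes at 1 RPKM or more in at least 3 libraries were kept (10602 genes for Con, STZ, A10-FMT and Con-FMT in 12 libraries, 10822 for all 6 groups). Group means of log2(RPKM + 1) were fitted with limma 3.58.1 (trend, two-sided, R 4.3.3), with p-values adjusted by Benjamini-Hochberg over all genes of a contrast. The 4-group fit gave the contrasts of STZ, A10-FMT and Con-FMT, the 6-group fit those with AOS. An exact permutation test of 3 against 3 mice cannot give a p under 0.1. Positions are from GENCODE M21 (GRCm38), upstream sequences from RefSeq (GRCm38.p6), both matched by symbol. Python 3.11.15 with pandas 2.3.3 and matplotlib 3.10.9 was used.

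Reads per library are not contained in RPKM. Steps between the lowest values of 13 of 40 candidate genes gave relative depths of 0.926 to 1.092, and 9955 to 10409 genes reached 1 RPKM per library. Sampling error is unknown, and both measures differed with STZ. Depth was 1.022 to 1.088 in Con and 0.933 to 1.002 in STZ, and 1.034 to 1.092 in AOS and 0.926 to 0.977 in STZ+AOS. Genes at 1 RPKM numbered 9955 to 10069 in Con and 10169 to 10397 in STZ. Summed RPKM was 749557 to 806937 in Con and 631126 to 684659 in STZ. The procedure was tested on simulated data.

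The members and all gene and marker lists were chosen with earlier results of these data known. All members are named, and of each list at most the 4 genes of lowest adjusted p with STZ, besides those said to be named after their values were seen. Genes of like pattern are the 3 with the highest correlation to each of the 3 called members of largest change. One of these genes is not reported here. Alternatives were 3 scalings, a pseudocount of 0.1, no filter or 1 RPKM in every library, other sets of groups, a stricter threshold, a replicate block and leaving out each mouse. Pairing was checked by correlating, over genes, the deviations of same-numbered mice from their group means. It passed 0.1 for all 3 numbers in 1 of 15 pairs of groups, A10-FMT and Con-FMT (0.121 to 0.291). The numbers come from the sample titles, and nothing in the sources says that they mark shared animals or batches.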

Additional observations from a re-analysis of the deposited data

How the results depend on the processing

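Of 1620 values of single genes under alternatives, 1483 kept both direction and side of the threshold, 68 that were called neither before nor after took the other sign, 50 lost and 19 gained the call, and 0 called values reversed. Under the authors' limits (adjusted p of 0.001 or less and 2-fold change) the members called fell to 3 in STZ against Con, 2 in STZ+AOS against AOS, 1 in A10-FMT against Con and 1 in Con-FMT against Con. All genes called were then 191, 298, 33 and 21.

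Leaving out each mouse gave 6 to 9 members in STZ against Con, 6 to 8 in STZ+AOS against AOS, 4 to 4 in A10-FMT against Con and 4 to 5 in Con-FMT against Con. Against STZ it gave 0 to 5 for A10-FMT and 0 to 4 for Con-FMT, the highest without STZ mouse 3, and 0 to 1 in AOS against Con, the 1 without AOS mouse 2. It gave 0 throughout in A10-FMT against Con-FMT, in STZ+AOS against STZ and for the interaction. All genes called were 2562 (without Con mouse 1) to 5012 (without STZ mouse 3) in STZ against Con, 547 (without Con mouse 1) to 1468 in A10-FMT against Con, and 603 (without Con-FMT mouse 1) to 2096 in Con-FMT against Con. In STZ+AOS against AOS they were 2767 to 4045.

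Median-ratio scaling gave 2654 genes in STZ+AOS against AOS (49.9% higher, against 83.9%), 1164 in A10-FMT against Con (55.1%, against 86.6%), 874 in Con-FMT against Con (55.8%, against 90.3%), and, with STZ as the reference, 95 for A10-FMT and 73 for Con-FMT. Median centring and quantile normalization gave 77 and 47 in A10-FMT against STZ. With only the groups compared, STZ against Con gave 2651 genes and lost Fabp1 (limma adjusted p 0.0516), STZ+AOS against AOS gave 2483, lost Mfsd2a (0.052), Slc27a1 (0.0724) and Slc27a2 (0.0665) and gained Lpl (0.0125), A10-FMT against Con gave 3355 and gained Fabp4 (0.00113) and Lpl (0.0183), and AOS against Con gave 41. The cause of these moves was not tested.

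The mouse numbers did not pair the samples of 14 of the 15 pairs of groups. Of all 45 pairs of same-numbered mice, 15 had deviations from the group means correlated above 0.1 (median 0.032, from -0.249 to 0.472). A replicate block on these numbers left 7 members called in STZ against Con and 8 in STZ+AOS against AOS, and gave 4 in A10-FMT against Con and 5 in Con-FMT against Con. For A10-FMT and Con-FMT, where all 3 numbers passed, a fit of these 6 libraries with the block, added after seeing the data, called 0 of 10302 genes (595 at an unadjusted p under 0.05) and 0 members (0 unadjusted, limma adjusted p of 0.871 or more), as did the block in the fit of 4 groups. Reads per gene are unknown, so the sampling error of genes near 1 RPKM, such as Slc27a1, and of Mfsd2a and Cd36 in Con could not be calculated.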

Other observations

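The genes whose log2(RPKM + 1) followed that of the 3 called members of largest change most closely over the 18 libraries, among 10822 tested genes, were found by Pearson correlation. For Mfsd2a they were Cyp2c38, a cytochrome P450 (r = 0.938), Dpyd, which breaks down pyrimidines (0.934), and Ass1, the urea cycle enzyme that makes argininosuccinate (0.933). For Fabp5 they were Cela1, an elastase (0.973), Nat8f7, an N-acetyltransferase family member (0.949), and Cspg5, a proteoglycan (0.943). For Cd36 they included Aass, the first enzyme of lysine breakdown (0.957), and Rab18, a GTPase of lipid droplets (0.952). Cd36, Mfsd2a and Fabp5 did not overlap between the 12 STZ-injected mice and the other 6, so these values carry that split. Within the 12 injected mice r fell to 0.365, 0.252 and 0.027 for the partners of Mfsd2a, in the order given, against 0.848, 0.914 and 0.840 within the 6 other mice, while it was 0.810, 0.581 and 0.605 for those of Fabp5 and 0.877 and 0.899 for Aass and Rab18 with Cd36. Within the 6 others r was 0.749, 0.708 and 0.439 for the partners of Fabp5 and 0.675 and 0.764 for Aass and Rab18 with Cd36.

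Among the members themselves, Fabp1 and Fabp2 varied together both within the 12 injected mice (r = 0.755) and within the 6 others (r = 0.974). So did Fabp1 and Fabp5 (0.699 and 0.902) and Slc27a1 and Slc27a2 (0.721 and 0.631). High r within the 6 others was not particular to these pairs, as Slc27a1 and Fabp5 had 0.942 there and 0.016 within the injected mice. Cd36 went against Fabp1 within the injected mice (r = -0.751) but not within the 6 others (0.089), where Cd36 was low in all. These are descriptions over mice of several groups, whose libraries share the scaling of RPKM.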
